A study of Mus musculus with 11 samples.

Results

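The genes of the tumour necrosis factor (TNF) superfamily and of the NF-kB pathway were followed in sympathetic ganglia of aged mice with and without apolipoprotein E. Members were chosen by gene symbol: the numbered ligand (Tnfsf), receptor (Tnfrsf), TNF-induced (Tnfaip) and adaptor (Traf) genes, the Nfkb genes, and Tnf, Lta, Ltb, Ltbr, Rel, Rela, Relb, Birc2, Birc3, Bcl3 and Cebpd, with Tnfrsf17 left out. The rule found 54 of the 12393 genes that have a probe set assigned to a single gene on the array, through 81 probe sets. The study measured total RNA of sympathetic ganglia from male C57BL mice aged 78 weeks on 11 single-colour Affymetrix arrays. The 6 Apoe-deficient arrays came from apoE-/- animals and the 5 wild-type arrays from animals with intact Apoe. Both groups were kept on normal chow, and the ganglia were cut from frozen tissue by laser capture. No label ties an array to an animal, so the p-values measure only how these samples vary, and some of that variation may be technical. With 11 arrays in all, precision is limited throughout.

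TNF family ligands act on receptors at the cell surface, which recruit TRAF adaptors and the ubiquitin ligases cIAP1 and cIAP2. These in turn lead to the release of NF-kB, a dimer of Rel proteins, from the IkB proteins that hold it in the cytoplasm. NF-kB then switches on inflammatory and survival genes, among them genes of its own inhibitors, so that the pathway limits itself. In the aorta of Apoe-deficient mice this pathway is a known part of vascular inflammation, and lymphotoxin signalling supports lymphoid tissue.

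Values are probe set signals as deposited, or, for tests, log2(signal + 16) after quantile normalisation. A gene was tested where 5 or more arrays gave its probe set a value above the 40th percentile. This left 23 members tested and 31 under the filter, which are described by their signals. All differences are Apoe-deficient minus wild-type on the log2(signal + 16) scale, which understates changes of low genes. Adjusted p-values come from limma over all 8433 tested genes, by the Benjamini-Hochberg method, and 0.05 was the threshold.

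The genotype labels held: the signal of Apoe was 143 ± 84.6 (SD, n = 6) in the Apoe-deficient arrays and 15155 ± 3020 (SD, n = 5) in the wild-type arrays. Of the noradrenergic neuron markers, Th, Dbh and Slc6a2 were past the filter. The arrays were divided into 3 levels by the log2 signal of the hybridisation controls, transcripts added to every array. That signal ran from 10.87 to 11.07 at the low, 11.78 to 12.05 at the middle and 12.48 to 13.22 at the high level. The middle and high levels lay closer together than the low and middle levels, so the line between them is less clear. Apoe-deficient replicates 2, 3 and 4 had the lowest level, and no wild-type array did, so for the low-level arrays control level and genotype cannot be told apart. For the members described in full, values within the other levels are given: 2 against 2 arrays at the high level, and 1 Apoe-deficient against 3 wild-type arrays at the middle level.

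Of the 54 members 23 were tested, and 2 of these passed, both higher in Apoe-deficient ganglia: Cebpd and Tnfaip8. No member was lower past the threshold. Among the 23 tested members the called share was 8.70%, beside 1.93% of all tested genes called in either direction, 1.26% higher and 0.676% lower. That share rests on 2 genes, and Tnfaip8 reached the filter only with Apoe-deficient arrays, where it is high. Cebpd is in the rule by its own name, and members were chosen with earlier results of these data known, so the share was not taken as an excess. The median difference was -0.05 over the tested members and -0.04 over all tested genes. Of the tested members 11 had a positive and 12 a negative difference, and 7 had an unadjusted limma p under the threshold (20.3% of all genes did). The module did not move in 1 direction. In these bulk samples, a change in the number of cells of a type and a change of RNA per cell cannot be told apart.

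**Figure D1:**
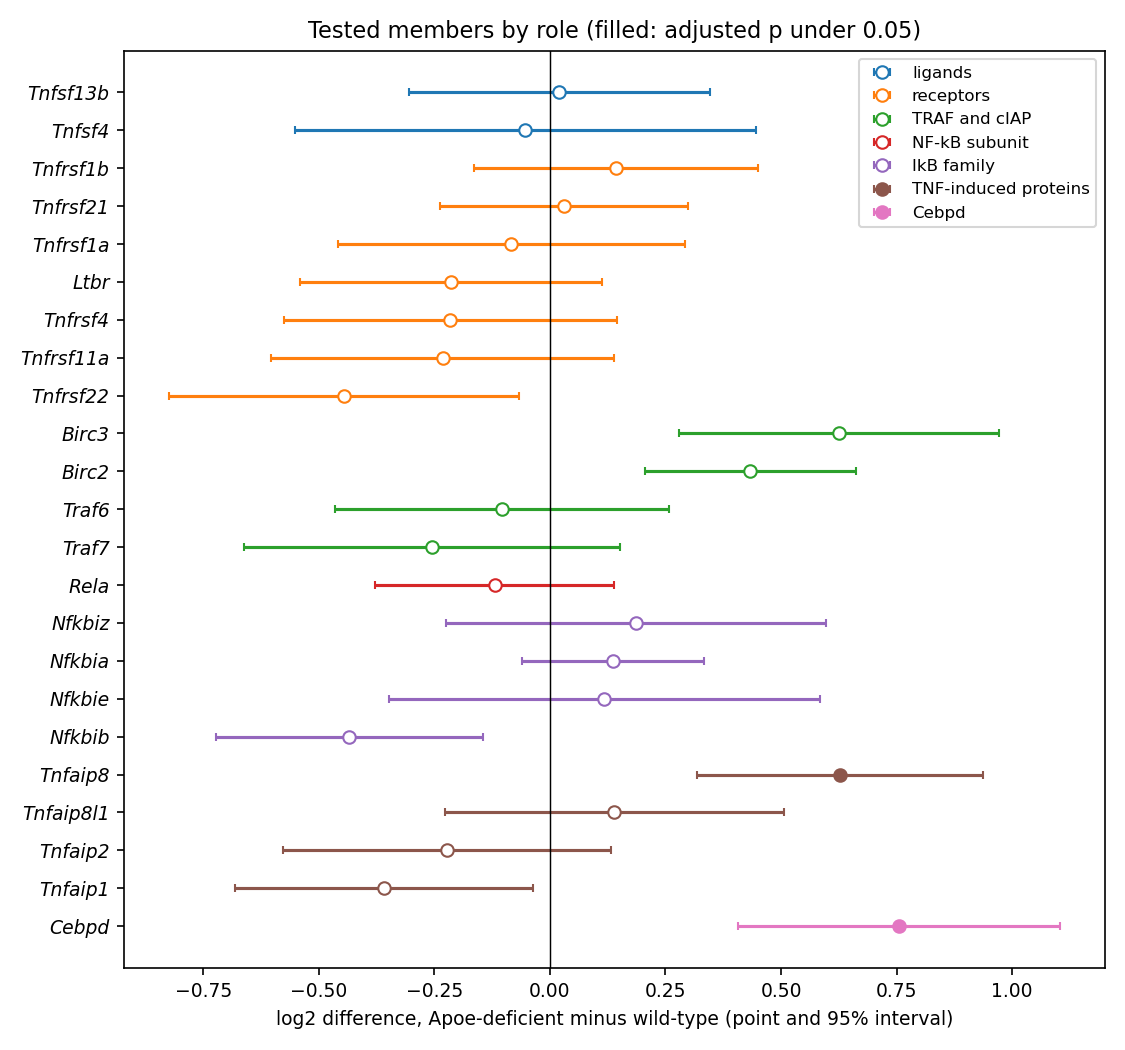
Log2 difference (Apoe-deficient minus wild-type, x axis) of the 23 tested members, grouped by role, with 95% intervals from limma. Filled points, Cebpd and Tnfaip8, have an adjusted p under 0.05; Birc2 and Birc3 have intervals above 0, and those of Nfkbib, Tnfrsf22 and Tnfaip1 lie below 0.

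Cebpd encodes the transcription factor C/EBP delta, which inflammatory cytokines induce in many cells. Its signal was 435.7, 304.1, 330.7, 382.1 and 331 in wild-type replicates 1 to 5. In the Apoe-deficient arrays the lowest signal was 412.1, the median 616.3 and the highest 858.9. Only Apoe-deficient replicate 3 fell within the wild-type range, and the other 5 arrays lay above it. Cebpd thus differed by 0.76 on the log2 scale (SE 0.16, limma adjusted p = 0.0277), a fold of 1.69. An exact permutation test, two-sided, gave p = 0.0065. Within the high control level the difference was 0.97 and within the middle level 0.62. Without the low-level arrays it was 0.86 (limma adjusted p = 0.10), which did not pass. The call was lost when Apoe-deficient replicate 2 or 4 was left out (limma adjusted p = 0.060 and 0.065), and likewise wild-type replicate 2, 3 or 5 (0.091, 0.068 and 0.079), with differences of 0.71 to 0.76 in these fits. It was also lost with the control level as a block (0.82, adjusted p = 0.13). The second Cebpd probe set, of lower signal, gave a difference of 0.51 (adjusted p = 0.23 in a fit of all probe sets).

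Tnfaip8 encodes a TNF-induced cytoplasmic protein that belongs to a family binding phosphoinositides. Wild-type signals were 100, 106.2, 135, 113.3 and 135.4. The Apoe-deficient arrays had a lowest signal of 151.4, a median of 181.2 and a highest of 230.6. The groups did not overlap, since all 6 Apoe-deficient arrays lay above each wild-type array. Tnfaip8 differed by 0.63 on the log2 scale (SE 0.14, limma adjusted p = 0.0391), a fold of 1.54, with an exact two-sided permutation p of 0.0022, the smallest that 462 splits can give. It was 0.83 within the high and 0.33 within the middle control level. The call was lost without Apoe-deficient replicates 2, 3, 4 or 6 (limma adjusted p = 0.067, 0.10, 0.083 and 0.054) and without wild-type replicates 1, 2, 3 or 5 (0.11, 0.11, 0.059 and 0.070). It was lost too with the control level as a block (0.62, adjusted p = 0.20) and without the low-level arrays (0.56, adjusted p = 0.31). All wild-type signals were at or below 135.4, close to the filter level, a signal of 110.4 after normalisation. Tnfaip8 was above that level in 9 arrays, and wild-type replicates 1 and 2 were not among them. It thus reached the 5 arrays that the filter asks for only with Apoe-deficient arrays, where it is high.

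**Figure D2:**
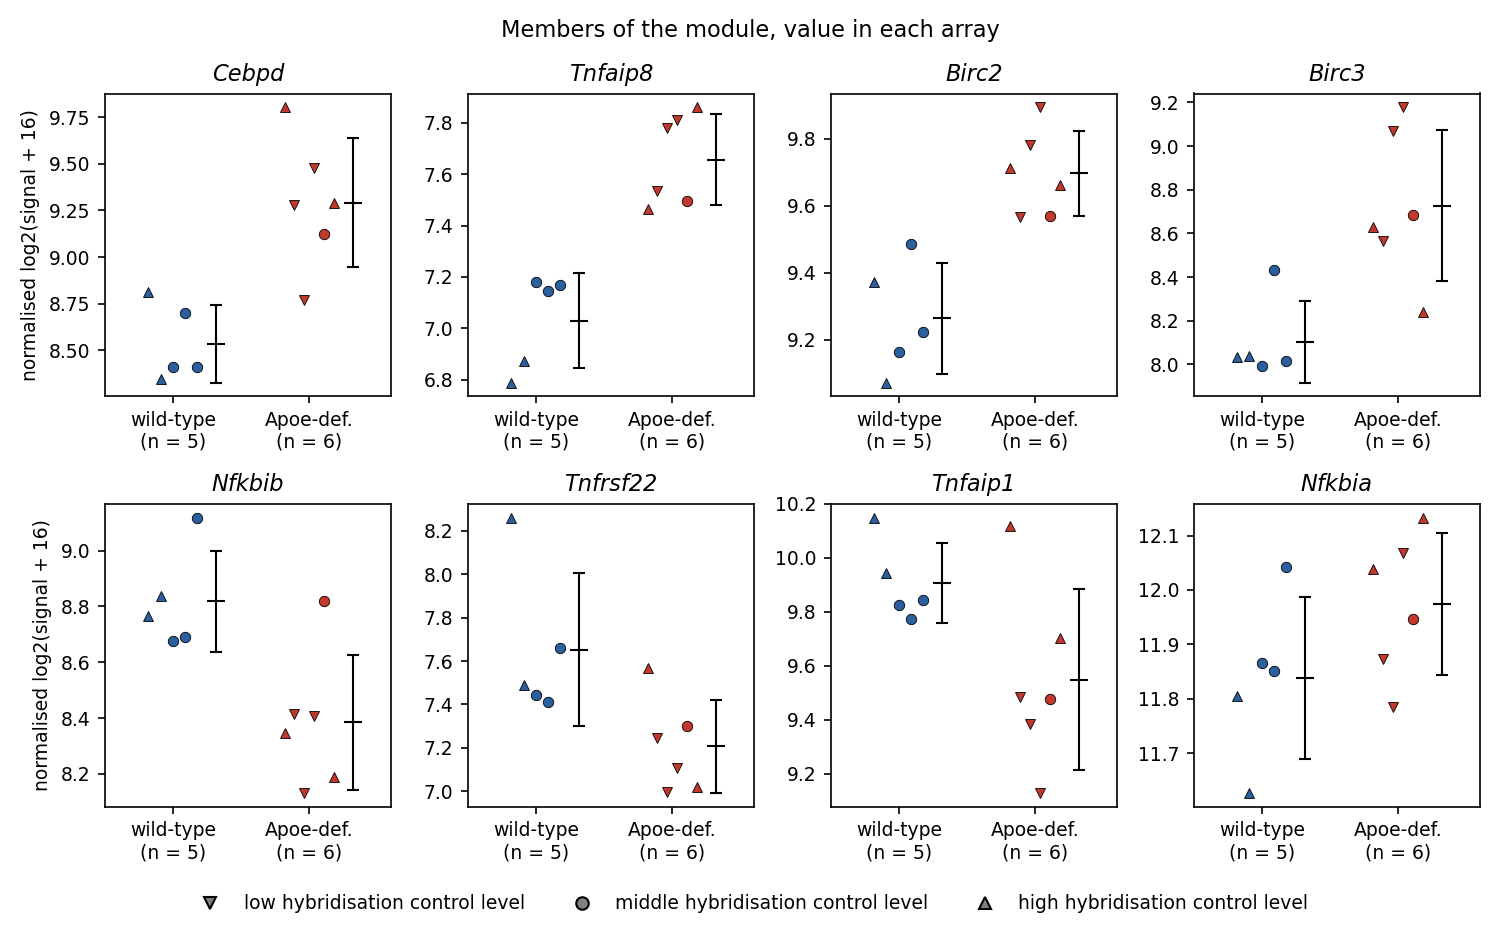
Normalised log2(signal + 16) of 8 members in each array, with group means and SD beside the points (n = 5 wild-type, n = 6 Apoe-deficient); symbols show the hybridisation control level. Tnfaip8 and Birc2 have no overlap between the groups, and for Cebpd, Birc3, Nfkbib, Tnfrsf22 and Tnfaip1 1 Apoe-deficient array lies within the wild-type range.

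Birc2 and Birc3, which encode the ubiquitin ligases cIAP1 and cIAP2, stood just short of the threshold. The 2 genes are neighbours in the RefSeq gene order, with 0 protein-coding genes between them. Birc2 signals were 643.8, 516.3, 568.6, 690.6 and 590.1 in wild-type ganglia and ran from 749.6 to 949 (median 797) in Apoe-deficient ganglia, without overlap. The difference of Birc2 was 0.43 (SE 0.11, limma adjusted p = 0.0513, exact two-sided permutation p = 0.0022). It passed without Apoe-deficient replicate 5 (0.46, limma adjusted p = 0.046) or wild-type replicate 4 (0.49, adjusted p = 0.034), and not without any other array (adjusted p up to 0.14). Within the high and middle control levels Birc2 differed by 0.47 and 0.28. With the level as a block it differed by 0.38 (adjusted p = 0.27), and without the low level by 0.38 (adjusted p = 0.30). Groups were apart, higher in Apoe-deficient ganglia, for 2 members, Tnfaip8 and Birc2, and apart in the lower direction for 0. Over all tested genes the groups were apart for 2.96%, 1.46% higher and 1.51% lower.

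Birc3 had wild-type signals of 249.5, 245.2, 243.2, 313 and 250.9. Its Apoe-deficient signals ran from 301.3 to 562.4 (median 388.4), and 5 of 6 arrays lay above every wild-type array. Apoe-deficient replicate 6 was the low array and wild-type replicate 4 the high one. The difference was 0.62 (SE 0.16, limma adjusted p = 0.0622), with an exact two-sided permutation p of 0.0108. Without Apoe-deficient replicate 6 it was 0.73 (limma adjusted p = 0.022), and without wild-type replicate 4 it was 0.70 (adjusted p = 0.038). The differences within the high and middle control levels were 0.40 and 0.53. Birc3 differed by 0.46 with that level as a block (adjusted p = 0.35), and without the low level by 0.41 (adjusted p = 0.39), over 1.5 times below the value from all arrays. Over each array left out in turn its limma adjusted p ran from 0.022 to 0.15. The other Birc3 probe set stayed under the filter, with signals from 12.2 to 79.7.

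**Figure D3:**
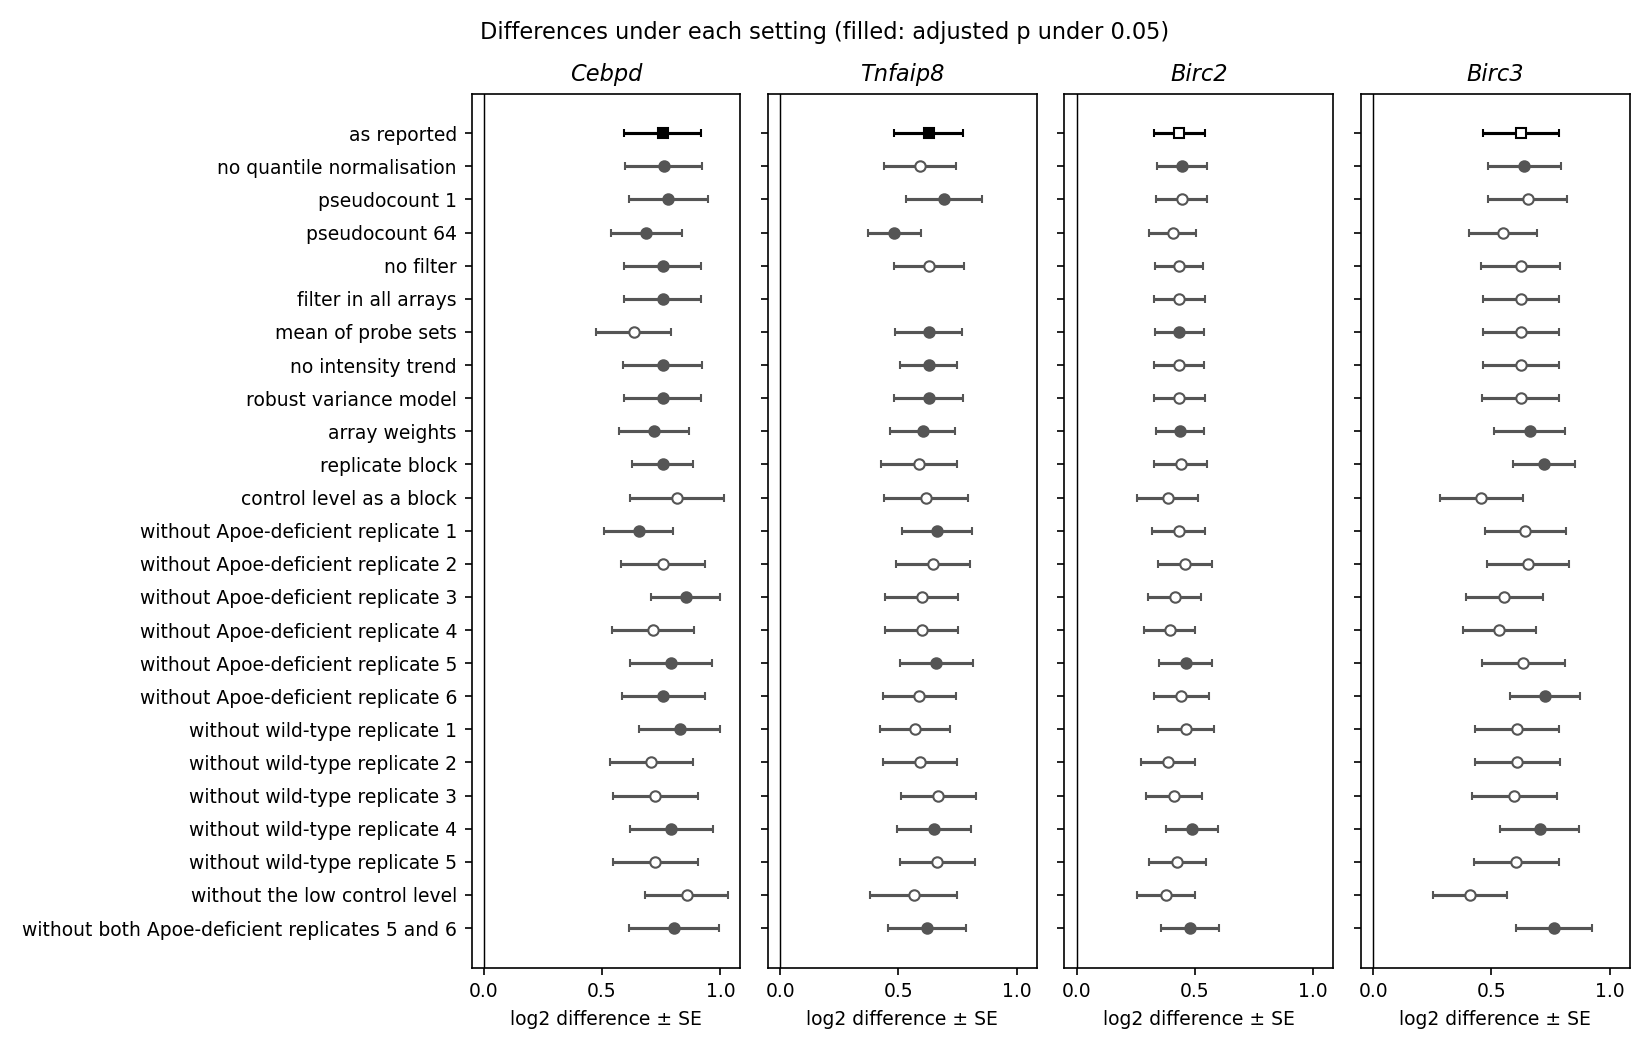
Log2 difference ± SE (x axis) of Cebpd, Tnfaip8, Birc2 and Birc3 under each setting; filled symbols have a limma adjusted p under 0.05, and a missing point means that the gene was not tested. All 4 genes stay above 0, from 0.38 (Birc2) to 0.86 (Cebpd), while which of them are filled changes between settings.

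The ligands were mostly at low signals. Of 10 ligand genes on the array 2 were tested: Tnfsf13b, which encodes the B cell survival factor BAFF, differed by 0.02 (95% interval -0.31 to 0.35), and Tnfsf4, the OX40 ligand gene, by -0.05 (-0.55 to 0.45). Tnf itself, the founding cytokine of the family, was under the filter. Its signal was 22, 27.6, 20.7, 12.3 and 19.5 in wild-type arrays and ran from 6.4 to 67.7 (median 22.2) in Apoe-deficient arrays, so the groups overlapped. Lta, the lymphotoxin alpha gene, had signals of at most 19.9 in Apoe-deficient arrays, and wild-type replicate 2 had the highest, 69.6. Without the filter the difference of Tnf was 0.18 (limma adjusted p = 0.78) and that of Lta -0.37 (limma adjusted p = 0.51). No difference of either gene was detected, and at these low signals a modest one could be missed.

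Ltb, the gene of lymphotoxin beta, a membrane ligand made by lymphocytes, had uneven signals. They were 11.2, 6.9, 6.3, 6.8 and 40 in wild-type arrays. In Apoe-deficient replicates 1 to 6 they were 65.5, 18.2, 8.8, 25.1, 312.8 and 157.7. Replicates 5 and 6 were the high arrays, and the other arrays of that group reached into or near the wild-type range. Without the filter the difference was 1.47 (SE 0.56, limma adjusted p = 0.21), which did not pass. Ltb and the other low genes named here for their signals (Tnfrsf13b, Tnfrsf13c, Tnfrsf18, Tnfrsf9 and Tnfrsf11b) were chosen after their values were seen.

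Genes of family receptors that B cells carry showed the same 2 arrays as high. Tnfrsf13b, which encodes TACI, had signals of 69.8, 55.7, 53.7, 64.3 and 70 in wild-type arrays and 74.9, 63.2, 73.8, 83, 155.3 and 335.9 in Apoe-deficient replicates 1 to 6. Tnfrsf13c, which encodes the BAFF receptor, had 131.9 and 167.9 in Apoe-deficient replicates 5 and 6 and 64.4 to 83.9 in the other 4, while wild-type arrays ran from 45.7 to 92.6. Without the filter the differences were 0.75 and 0.53, with limma adjusted p-values of 0.24 and 0.25. The summed signal of the 8 B and plasma cell markers on the array was 34905 and 75209 in Apoe-deficient replicates 5 and 6. It was 16291 to 33277 in the other Apoe-deficient arrays and 5739 to 21796 in wild-type arrays. Cd79a and Cd79b, defining B cell markers of that list, were under the filter. The part of these cells in the values was not tested. Without both of these arrays, an alternative chosen after seeing the data, 545 of 8281 genes were called, against 163 of 8433 with all arrays, so calls rose across the whole array. Among them 4 members were higher and 1 lower: Cebpd, Tnfaip8, Birc2 (0.48, limma adjusted p = 0.041) and Birc3 (0.77, adjusted p = 0.020), and Nfkbib (-0.50, adjusted p = 0.042).

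Further receptors under the filter did not pass, with differences of either sign. Tnfrsf18, which encodes GITR, a receptor of the family carried by T cells, had 26.2, 27.1, 37.8, 46.7 and 60.2 in wild-type arrays. Its Apoe-deficient signals were 47.2 to 128.5 (median 93.8), with overlap. Its difference without the filter was 0.96 (SE 0.24, limma adjusted p = 0.070). Tnfrsf9, which encodes the costimulatory receptor 4-1BB, had by one of its probe sets signals of 84.3 to 121.8 in wild-type arrays and 31.8 to 88.7 in Apoe-deficient arrays (difference -0.75, adjusted p = 0.11). Another Tnfrsf9 probe set had medians of 49.6 in Apoe-deficient and 21.2 in wild-type arrays, so the probe sets of this gene did not go one way. Tnfrsf11b, the gene of the decoy receptor osteoprotegerin, had signals of at most 39.3 in any array (difference 0.65, adjusted p = 0.19). Of the 31 members under the filter 0 were called by limma without it, where 1.05% of all genes were, and 6 had an unadjusted p under 0.05, as did 17.1% of all genes in that fit.

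**Figure D4:**
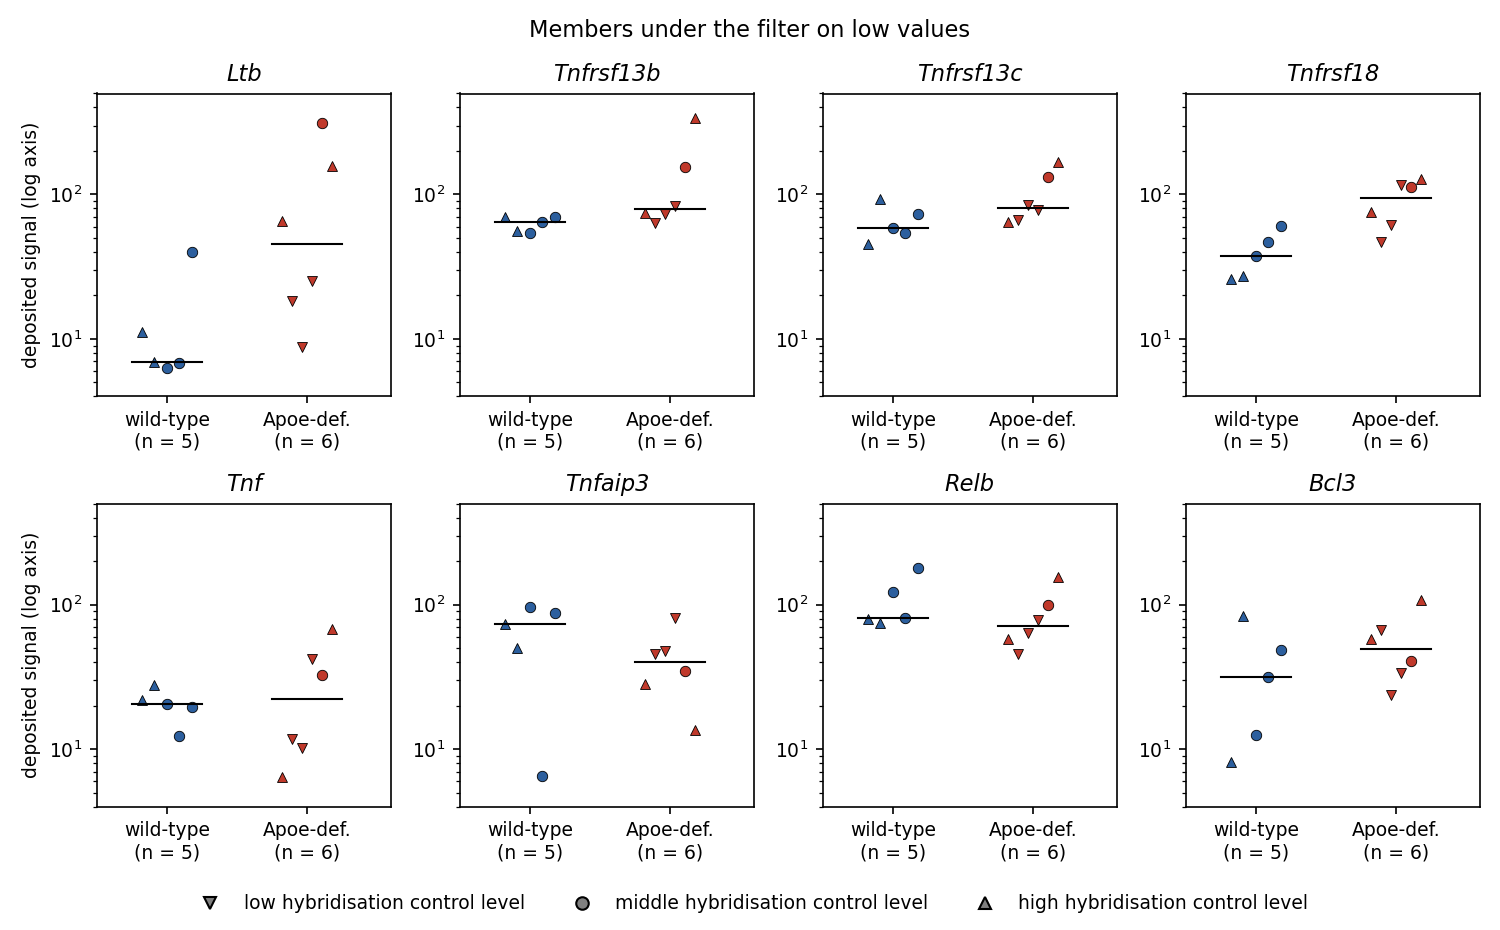
Deposited signal (log axis) of 8 members under the filter in each array, with a bar at each group's median; symbols show the hybridisation control level. Ltb, Tnfrsf13b and Tnfrsf13c are highest in Apoe-deficient replicates 5 and 6 (312.8 and 157.7 for Ltb), and the groups overlap for all 8 genes.

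The receptors of TNF were measured and did not pass. Tnfrsf1a, the gene of the widely expressed TNF receptor 1, had signals of 1057.8, 896.8, 643.4, 502.3 and 785.8 in wild-type arrays and 589 to 881.7 (median 722.1) in Apoe-deficient arrays. Its difference was -0.08 (SE 0.18, 95% interval -0.46 to 0.29, limma adjusted p = 0.81). Tnfrsf1b, the gene of TNF receptor 2, which leukocytes and endothelial cells carry, had 152.3, 103.9, 133.8, 123.1 and 155.5 against 116 to 171.5 (median 145.95), a difference of 0.14 (-0.16 to 0.45, adjusted p = 0.59). Within the high and middle control levels Tnfrsf1a differed by -0.20 and -0.0099 and Tnfrsf1b by 0.22 and 0.24. Tnfrsf1b was 0.06 without wild-type replicate 2, and Tnfrsf1a 0.04 without wild-type replicate 1. The groups overlapped for both genes, and the intervals include 0 as well as differences of moderate size. Ltbr, the lymphotoxin beta receptor gene, had 661, 559.1, 591.8, 404.4 and 493.6 in wild-type arrays and 374.7 to 604.3 (median 451.2) in Apoe-deficient arrays (difference -0.21, SE 0.15, adjusted p = 0.43). Its difference was -0.08 and -0.03 within the high and middle control levels.

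Tnfrsf22, a decoy receptor gene for the ligand TRAIL, was the most negative of the 7 tested receptors. Wild-type signals were 294.8, 166, 162.3, 142.6 and 193.6, with replicate 1 as the high array, and Apoe-deficient signals ran from 99.4 to 165.2 (median 128.4). The difference was -0.45 (SE 0.18, limma adjusted p = 0.19, exact two-sided permutation p = 0.017). Without wild-type replicate 1 it was -0.29 (adjusted p = 0.38), so that array moved the value by over 1.5 times. Within the high and middle control levels Tnfrsf22 differed by -0.58 and -0.20. Its other probe sets were under the filter with overlapping signals. Their Apoe-deficient means were 82.25 and 15, against wild-type means of 94.66 and 11.8, so they went opposite ways. Tnfrsf11a, the RANK gene, and Tnfrsf4, the OX40 gene, differed by -0.23 and -0.22, and Tnfrsf21, which encodes death receptor 6, a receptor studied in axon degeneration, by 0.03. None of these 3 passed. Tnfrsf11a was -0.12 without wild-type replicate 1 and -0.36 without wild-type replicate 4. Tnfrsf4 was -0.13 without Apoe-deficient replicate 3, -0.14 without wild-type replicate 2 and -0.11 without the low control level. Tnfrsf11a differed by -0.48 and 0.0093 within the high and middle levels, and Tnfrsf4 by -0.44 and 0.21, so neither kept its sign.

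Among the adaptors, Traf6 and Traf7 were tested. Traf6, which links receptors to the kinase TAK1, differed by -0.10, and another of its probe sets by 0.15. Traf7 differed by -0.25 (SE 0.19, limma adjusted p = 0.46), with the 3 low-level arrays at signals of 159.5, 142.3 and 175.7 against 244.2 to 335.6 in the other Apoe-deficient arrays. Its difference with the level as a block was 0.04, and within the high and middle levels 0.09 and -0.03. Traf1, Traf2, Traf4 and Traf5 were under the filter, with signals from 6.3 to 125.1.

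Of the NF-kB subunits only Rela was tested, and Nfkb1 was not analysed here. Rela, the gene of the p65 subunit, had signals of 731.1, 858.4, 843.7, 672.9 and 895.4 in wild-type arrays and 670.3 to 955.2 (median 703.1) in Apoe-deficient arrays. Its difference was -0.12 (SE 0.12, 95% interval -0.38 to 0.14, limma adjusted p = 0.60), and 0.05 and -0.06 within the high and middle control levels. Rel, Relb and Nfkb2 were under the filter. Relb, a subunit of the non-canonical pathway downstream of lymphotoxin, had 80.2, 75.1, 122.5, 80.9 and 180.5 against 45.8 to 156.4 (median 70.95). Bcl3, an atypical IkB protein that can act as a coactivator, had 8.2, 84, 12.5, 31.7 and 48.3 against 23.8 to 107.6 (median 49.3). Both genes overlapped between the groups and gave limma adjusted p-values of 0.60 and 0.43 without the filter. They lie beside the deleted gene on chromosome 7 in the RefSeq order, Relb with 5 protein-coding genes between it and Apoe and Bcl3 with 4 on the other side. Nfkbib and Tnfrsf22, named for their negative differences, are on chromosome 7 too, with 261 and 1681 protein-coding genes between them and Apoe.

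The IkB family held members on both sides. Nfkbia, the gene of the main inhibitor IkB alpha and a direct NF-kB target, had signals of 3534.6, 3146.9, 3647, 3882.5 and 4186.2 in wild-type arrays and 3553 to 4403.2 (median 4063.9) in Apoe-deficient arrays. The groups overlapped, and the difference was 0.14 (SE 0.09, 95% interval -0.06 to 0.33, limma adjusted p = 0.41, exact two-sided permutation p = 0.14). Its other 3 probe sets gave 0.28, 0.09 and 0.19. Within the high and middle control levels Nfkbia differed by 0.37 and 0.03, and without wild-type replicate 2 by 0.08. Nfkbib, which encodes IkB beta, had 421.5, 436.2, 401.7, 380 and 548 in wild-type arrays and 253.7 to 442.3 (median 311.95) in Apoe-deficient arrays. Of the Apoe-deficient arrays 5 of 6 lay below every wild-type array, and replicate 5 was the exception. The difference was -0.43 (SE 0.14, limma adjusted p = 0.11, exact two-sided permutation p = 0.0108). Without Apoe-deficient replicate 5 it was -0.52 (adjusted p = 0.038). It was -0.53 within the high and -0.01 within the middle control level, the latter holding Apoe-deficient replicate 5 alone. Its probe set name ends in _s_at, which marks probes that may match more than one transcript. Nfkbiz and Nfkbie, inducible members of the family, differed by 0.19 and 0.12.

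Promoter sequences are shown for Nfkbia, a standard NF-kB target, and for Birc3 and Ltb, a known target gene near the threshold and the ligand with the uneven signals; these last 2 were chosen after their values were seen. The RefSeq promoter table (GRCm38.p6) held promoters of 45 members, 250 bases before to 50 after a gene start, and Cebpd and Tnfaip8 are not shown. Capitals mark matches to a loose form of the kappaB site (3 G, any 5 bases, then 2 C) on either strand, with overlapping matches merged. The Nfkbia window is chr12:55492598-55492897 (minus strand), that of Birc3 chr9:7873121-7873420 (minus strand) and that of Ltb chr17:35194257-35194556 (plus strand).
Nfkbia: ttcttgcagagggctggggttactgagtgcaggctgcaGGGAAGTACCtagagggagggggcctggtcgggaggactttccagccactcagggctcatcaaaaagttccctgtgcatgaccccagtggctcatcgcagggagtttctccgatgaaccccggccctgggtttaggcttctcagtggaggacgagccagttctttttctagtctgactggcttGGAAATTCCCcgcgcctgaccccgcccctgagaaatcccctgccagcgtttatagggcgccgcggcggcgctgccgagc
Birc3: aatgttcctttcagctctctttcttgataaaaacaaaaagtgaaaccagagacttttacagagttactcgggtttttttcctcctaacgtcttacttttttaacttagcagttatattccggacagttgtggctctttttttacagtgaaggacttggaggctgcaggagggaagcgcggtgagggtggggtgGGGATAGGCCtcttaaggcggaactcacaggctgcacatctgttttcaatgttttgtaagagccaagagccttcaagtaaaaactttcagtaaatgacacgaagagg
Ltb: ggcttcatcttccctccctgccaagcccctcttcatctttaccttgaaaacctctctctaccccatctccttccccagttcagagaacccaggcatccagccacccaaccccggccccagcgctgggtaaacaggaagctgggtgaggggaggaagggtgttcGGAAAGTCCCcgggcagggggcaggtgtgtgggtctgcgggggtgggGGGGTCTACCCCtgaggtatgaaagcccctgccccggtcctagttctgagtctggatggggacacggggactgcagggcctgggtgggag
The loose pattern occurred in 50.8% of all 32851 promoters in the table, so a match says little by itself, and in 38 of the 54 promoters of members. Birc3 held 1 such match, Nfkbia 2 and Ltb 4, of which 3 overlap, and a match is a description of the letters only.

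The remaining TNF-induced genes did not pass. Tnfaip1, which encodes an adaptor of a ubiquitin ligase, had 1101.4, 947.2, 902, 850.1 and 894.8 in wild-type arrays and 541.1 to 1061.2 (median 710.95) in Apoe-deficient arrays, with replicate 1 as the high one. Its difference was -0.36 (SE 0.15, limma adjusted p = 0.20), and its other probe sets gave -0.28 and -0.32, the latter with signals that did not overlap. Tnfaip1 differed by -0.14 within the high and -0.34 within the middle control level, by -0.22 with the level as a block and by -0.14 without the low level. Tnfaip2 had 143.1, 179.7, 182.9, 145.4 and 197.7 in wild-type arrays and 89.1 to 182.3 (median 144.75) in Apoe-deficient arrays (difference -0.22, SE 0.17, limma adjusted p = 0.46). Leaving out Apoe-deficient replicate 2 gave -0.12 for Tnfaip2. A block for control level gave -0.064, and the arrays outside the low level -0.11. Within the high and middle levels it differed by -0.12 and 0.013. Tnfaip8l1 differed by 0.14. Tnfaip3, the gene of the deubiquitinase A20 that ends NF-kB signalling, was under the filter with 73.2, 50.1, 96.1, 6.5 and 87.2 against 13.5 to 81 (median 40.1). Tnfaip6, which encodes a hyaluronan-binding protein, had signals of at most 59.2.

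The rest of the pathway was examined through 3 further lists, chosen with earlier results of these data known. Of 27 tested core signalling genes 0 passed in either direction, with a median difference of -0.02. Those of smallest p were Tank, a TRAF-binding scaffold (0.84, limma adjusted p = 0.13), Rbck1, a subunit of the linear ubiquitin ligase (-0.40, adjusted p = 0.14), and Myd88, the adaptor of Toll-like receptors (0.32, adjusted p = 0.18). Of 46 NF-kB target genes on the array 22 were past the filter and tested, and 0 passed, with a median difference of 0.11. Over all tested genes 1.93% passed and the median was -0.04, so 0 calls in lists of these sizes say little. Those of smallest p were Vcam1, a leukocyte adhesion molecule (0.56, adjusted p = 0.081), the chemokine gene Ccl5 (1.17, adjusted p = 0.097) and the myeloid factor gene Irf8 (0.54, adjusted p = 0.17). Ccl5 signals were 737.7 and 594.9 in Apoe-deficient replicates 5 and 6, 127.9 to 321.7 in the other 4, and 78.2 to 177.7 in wild-type arrays. Of the TNF family genes under other names only Ngfr, the p75 neurotrophin receptor gene, was tested (-0.35, adjusted p = 0.32).

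Markers of some other cells differed between the groups beside these genes. Their differences are not given within control levels. For the low-level arrays, all Apoe-deficient, level and genotype cannot be told apart here either. The 15 macrophage markers summed to signals of 10352 to 15241 in Apoe-deficient arrays and 6087 to 7906 in wild-type arrays, without overlap. Of the 13 tested 7 were called higher, among them Lyz2 (1.19) and Cd68 (0.82), and 0 lower. Not called were Cd163, Aif1 and Fcer1g (0.90, 0.75 and 0.61) and, nearer 0, Laptm5, Adgre1 and Cd14 (0.16, 0.07 and 0.02). Outside the low level the Apoe-deficient macrophage sums were 11766, 10352 and 11966, in replicates 1, 5 and 6. Mast cell markers summed to 1870 to 5277 against 798 to 1922, with 4 of 6 called higher. The fibroblast sums were 12217 to 18528 against 9348 to 13569, and those of white adipocyte markers, with 0 of 6 called, were 4369 to 31274 against 12908 to 40490. Noradrenergic neuron sums ran from 47760 to 95782 against 66637 to 98763. All sums are of deposited signals, before quantile normalisation. The noradrenergic sums below the wild-type range, 48194, 47760 and 52731, were those of Apoe-deficient replicates 2, 3 and 4, the low-level arrays. After normalisation the 9 tested noradrenergic markers had a median difference of 0.0074. Of the B and plasma cell markers 2 of 6 tested were called higher, and of the fibroblast markers 1 of 9. No call was made among the tested T and NK cell (2), neutrophil (3), endothelial (9), noradrenergic (9) and glial (7) markers. The macrophage markers Cx3cr1 and Itgam and the T cell markers Cd3e, Cd3d, Cd3g, Cd4 and Cd8a were under the filter. Cebpd, Tnfaip8, Birc2 and Birc3 had positive differences. The Apoe-deficient medians of the macrophage, mast cell, fibroblast, B and plasma, and endothelial sums were higher too. For T and NK cells the medians were 3448 against 3250, but the highest sum, 9821, was in wild-type replicate 1, mostly from Thy1 (9233.9). The 2 tested T and NK genes went opposite ways, Nkg7 by 0.56 and Thy1 by -0.43, and neither passed. Only the macrophage sums did not overlap between the groups. The genes were not compared with the sums array by array, and the part of these cells in their differences was not tested.

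**Figure D5:**
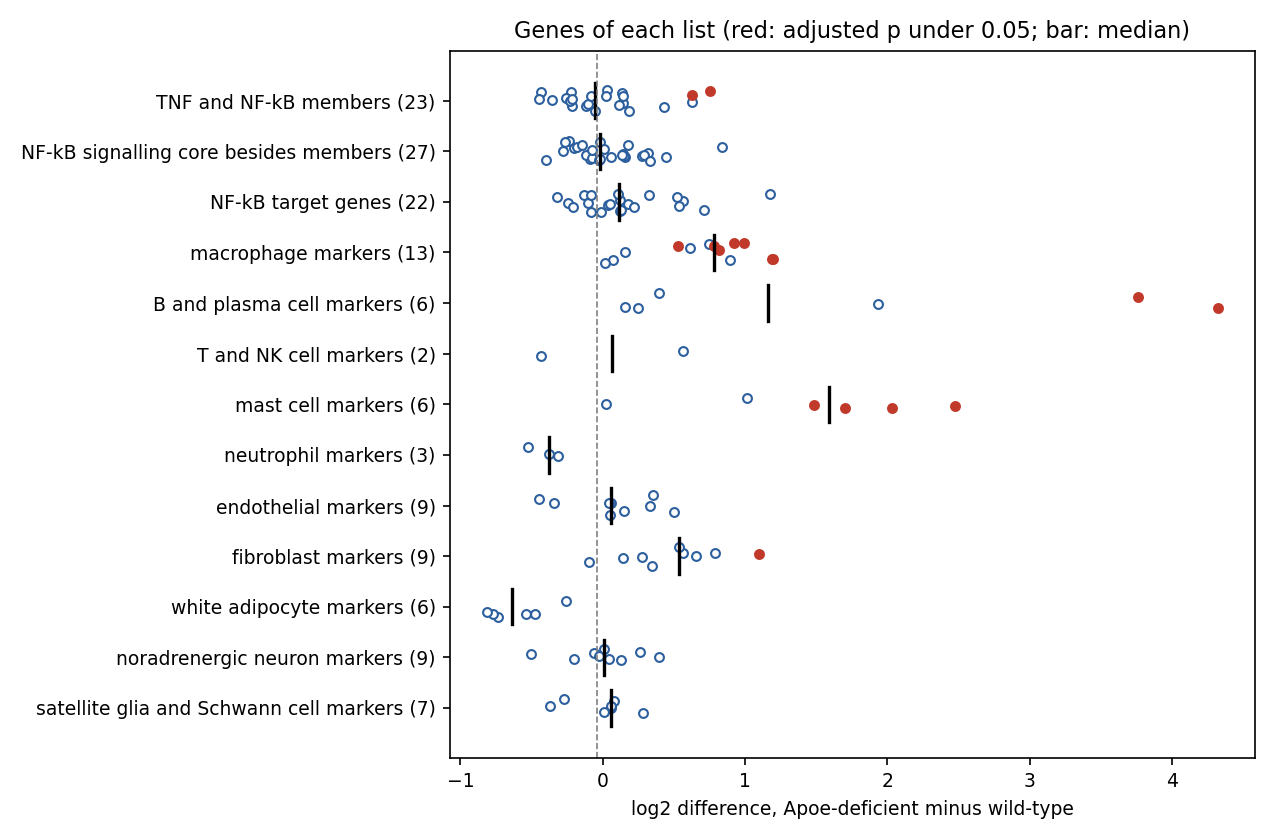
Log2 difference (x axis) of each tested gene in each list, with the number of tested genes in brackets, a bar at the list's median and a dashed line at the median of all genes (-0.04). The members lie around that line (median -0.05, 2 called), while the macrophage markers have a median of 0.78 and 7 of 13 called.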

How the data were processed

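Total RNA of sympathetic ganglia was measured on 11 arrays, 6 Apoe-deficient and 5 wild-type. The authors deposited 1 linear intensity (the signal) per probe set and array, made with GCOS 1.4 per the submitters' processing notes. How GCOS was set, and its detection calls, were not given in the sources used here. Trimmed means (2% per end) were 500.2 on each array, which shows a common scaling of the arrays. Of 22690 probe sets, 64 array controls were left out, 20380 had 1 gene symbol, 691 several and 1555 none. All 54 members were found in the RefSeq table (GRCm38.p6), used for names and gene order, and promoters of 45 members came from RefSeq's promoter table of that build.

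Signals were taken to log2(signal + 16), quantile normalised and filtered (above the 40th percentile in at least 5 arrays). The single-gene probe set of highest mean stood for its gene. limma 3.58.1 in R 4.3.3 (moderated model with intensity trend, two-sided) compared the groups. Exact two-sided permutation tests used all 462 splits, for the 23 tested members and Apoe. The fit was tested on simulated data. Figures were drawn with matplotlib 3.10.9.

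Members, lists and tests were chosen with earlier results of these data known. Described in full were called members, the 10 of smallest p, the 3 largest differences in each direction, and Cebpd, Birc3, Tnf, Tnfrsf1a, Tnfrsf1b, Rela, Relb, Bcl3, Nfkbia and Tnfaip3. Of each pathway list the 3 genes of smallest p were named. Other genes were chosen after their values were seen. Alternatives covered the step between arrays, pseudocount, filter, choice of probe set, variance model and array weights. Each array was left out in turn, and the replicate number and the control level were used as blocks.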

Additional observations from a re-analysis of the deposited data

Results flagged for a closer look

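In a group of 4 to 10 arrays, a value was singled out when its gap to the nearest array exceeded Dixon's critical share of the group's range; 48 groups of values were examined, and chance alone singles out about 1 in 20 groups. Birc3 was high in wild-type replicate 4, with a normalised log2 value of 8.43 against 8.04 in the next array. Apoe was low in Apoe-deficient replicate 3, with a log2 value of 4.64 against 7.09 in the next array.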

How the results depend on the processing

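The number of members called higher, 2 as reported, was 3 without quantile normalisation (Birc2, adjusted p = 0.044, Birc3, 0.046, and Cebpd), 2 as means of probe sets, where Birc2 (0.047) passed and Cebpd did not, 1 without the filter, 1 with the filter required in all arrays, 4 with array weights, 0 with the control level as a block, 0 without the low control level and 4 without both Apoe-deficient replicates 5 and 6. It ranged from 0 to 4 when each array was left out in turn. The number called lower, 0 as reported, was 1 with array weights and 1 without both of those replicates, and ranged from 0 to 1 with each array left out. Calls over all genes were 163 as reported, 668 with array weights, 545 without both of those replicates, 45 with the control level as a block, 24 without the low control level, and 75 to 267 with each array left out. The cause of these shifts was not tested, although some settings hold fewer arrays or genes. Over its alternatives Cebpd ran from 0.63 to 0.86 (limma adjusted p from 0.014 to 0.13), Tnfaip8 from 0.48 to 0.69 (0.019 to 0.31), Birc2 from 0.38 to 0.49 (0.025 to 0.30), Birc3 from 0.41 to 0.77 (0.020 to 0.39), Nfkbib from -0.52 to -0.31 (0.038 to 0.49) and Apoe from -7.08 to -6.17. Cebpd lost its call as the mean of its probe sets (0.63, adjusted p = 0.052). Tnfaip8 lost it without quantile normalisation (0.59, adjusted p = 0.065) and without the filter (0.63, adjusted p = 0.060), and was not tested with the filter in all arrays.

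The replicate number as a block called 2 members, Birc3 (0.72, limma adjusted p = 0.024) and Cebpd (0.76, adjusted p = 0.020), and 185 genes in all, while Tnfaip8 did not pass (0.59, adjusted p = 0.088). Deviations of same-numbered arrays correlated from -0.18 to 0.15, and 1 of 5 correlated best with its own number, so the numbers were not taken as pairs.

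Some uncalled members changed sign, and the cause was not tested. With all arrays Ltbr was -0.21 and Traf7 -0.25, and the others were nearer 0. Without the low control level, Ltbr was 0.022, Traf7 0.10, Rela 0.012 and Tnfrsf1a 0.030. With the control level as a block, Traf7 was 0.039, Rela 0.0016 and Tnfsf4 0.033. As means of probe sets, Traf6 was 0.023 and Tnfrsf21 -0.041. With the replicate block, Tnfsf4 was 0.033 and Tnfsf13b -0.043, and with array weights Tnfsf13b was -0.016. Without both Apoe-deficient replicates 5 and 6, Tnfrsf21 was -0.067 and Tnfsf13b -0.050. With single arrays left out, Nfkbie ranged from -0.057 to 0.16, Tnfrsf1a from -0.22 to 0.040, Tnfrsf21 from -0.025 to 0.13, Tnfsf4 from -0.18 to 0.079 and Tnfsf13b from -0.11 to 0.086. The 31 members under the filter, Tnf and Ltb among them, rest on low signals, and limma called 0 of them without it.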
